A study of Mus musculus with 2 samples.

Results

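Oncostatin M, encoded by *Osm*, and 7 further genes of the interleukin-6 (IL-6) family pathway were examined in alveolar macrophages (AMs), the resident phagocytes of the lung air spaces, from control mice and from mice bearing a lung tumor. The 8 genes, out of the 32285 gene identifiers of the count tables, were chosen by name with earlier results of these data known, and all 8 were found. They comprise the ligands *Osm*, *Il6* and *Lif*, the receptor chains *Il6ra*, *Il6st* and *Osmr*, the transcription factor *Stat3* and the feedback inhibitor *Socs3*. Because the choice used the levels measured here, levels and ratios of these genes are given as a description, without a test. There was 1 droplet library per group, made with a 10x Genomics 3′ kit from lung AMs of C57BL/6 mice at postnatal week 10. Control mice received phosphate-buffered saline, and tumor mice received Lewis lung carcinoma (LLC) cells, a line derived from the same strain and labelled with tdTomato, in the left lung. In both groups cells of enzymatically digested lung were sorted as CD45+ autofluorescence+ Siglec-F+ F4/80+, and how many animals entered each library is not given in the sources used here. Tumor and control mice were bred apart, per the study's methods. With 1 library per group, the tumor, the breeding and the library batch cannot be told apart, and no p-value was computed.

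Cytokines of the IL-6 family signal through receptor complexes that share the chain gp130, the product of *Il6st*. IL-6 first binds IL-6Rα (*Il6ra*) on the cell or in soluble form, LIF pairs gp130 with the LIF receptor (*Lifr*), and mouse oncostatin M acts mainly through gp130 and its own chain (*Osmr*). Bound complexes activate JAK kinases and STAT3, and STAT3 induces *Socs3*, which binds gp130 and switches the signal off. Myeloid cells are a known source of oncostatin M, whereas its receptor is best known from fibroblasts, endothelium and epithelium.

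The regions before the RefSeq starts of *Il6* and *Socs3* are shown because these genes, with *Osm*, were the 3 whose level was at least 2-fold higher in the tumor library among those with 10 or more UMIs in both. RefSeq promoter sequences (GRCm38.p6) were matched for 7 of the 8 genes, all but *Osm*, each from 250 bases before to 50 after the start, and were searched on both strands for 4 motifs. These were the STAT motif TTCNNNGAA, a kappaB motif (GGG, any 2 bases, then TTTCC), the AP-1 motif TGANTCA and the C/EBP motif TTGNGCAA, which do not share letters in the matches found. The stretches below are parts of these windows that overlap no annotated exon, written 5′ to 3′ with the motif matches in capitals, at chr5:30012864-30013113 on the plus strand for *Il6* and at chr11:117969457-117969616 on the minus strand for *Socs3*:
Il6: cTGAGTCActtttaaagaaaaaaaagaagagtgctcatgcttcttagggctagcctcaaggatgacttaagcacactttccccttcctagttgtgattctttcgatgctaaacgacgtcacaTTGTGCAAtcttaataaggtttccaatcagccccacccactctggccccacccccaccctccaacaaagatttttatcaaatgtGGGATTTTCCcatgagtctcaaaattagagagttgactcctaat
Socs3: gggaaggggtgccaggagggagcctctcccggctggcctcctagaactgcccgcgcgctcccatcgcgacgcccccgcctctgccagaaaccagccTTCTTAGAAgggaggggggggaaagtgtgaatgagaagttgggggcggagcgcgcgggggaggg

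The RefSeq and GENCODE starts were the same base for *Il6*. For *Socs3* the RefSeq start lies 681 bases downstream of the first base of the GENCODE gene, so the stretch shown lies inside that gene, in no exon of it. Counted from the RefSeq start, the *Il6* window held the AP-1 letters at bases −249 to −243, the C/EBP letters at −128 to −121 and the kappaB letters at −44 to −35. The *Socs3* window held the STAT letters at −154 to −146. An AP-1 match also stood at −228 to −222 of *Lif* and at bases 4 to 10 from the start of *Osmr*, and the other 3 windows held none of the 4 motifs. Of 32851 promoter windows of this length, 7.81% held the AP-1 letters, 2.94% the C/EBP letters, 1.63% the kappaB letters and 8.30% the STAT letters. A match is a description of letters and shows no binding.

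Barcodes with under 500 detected genes or over 10% mitochondrial UMIs (unique molecular identifiers, 1 per captured transcript) were removed. This left 6185 cells in the control library (64850143 UMIs, median 10370) and 7666 in the tumor library (68801889 UMIs, median 8264). Kept barcode sequences also present in the other library numbered 19 in control and 23 in tumor. For comparison with the markers below, 4.3% of the 12936 genes with at least 10 UMIs in both libraries were at least 2-fold higher in tumor. Another 5.16% were at least 2-fold lower. At least 3 of 12 AM markers were detected in 99.2% of control and 98.6% of tumor cells, and the summed AM marker level was 16510 CPM (UMIs per 1000000) in control and 13982 CPM in tumor, with *Marco* past 2-fold lower. Of 8 monocyte and monocyte-derived macrophage markers, 6 had at least 10 UMIs in both libraries and 5 of these were at least 2-fold higher in tumor, the summed level being 18.01 CPM in control and 103 CPM in tumor. Cells with 3 or more of these markers made up 0.129% of control and 1.5% of tumor cells. Monocyte markers aside, cells with 3 or more markers of 1 other cell type numbered 165 in control (2.67%) and 55 in tumor (0.717%). Epithelial markers made up most of these in control, with 129 cells (2.09%) against 12 in tumor (0.157%), a summed level of 113 against 34.8 CPM, and 3 of 7 genes past 2-fold lower and 1 higher in tumor. Cells with 3 or more of 6 fibroblast markers numbered 2 and 9, with a summed level of 0.771 and 32.4 CPM and both counted genes, *Dcn* and *Col3a1*, past 2-fold higher (log2 ratios 5.18 and 6.01). Of 963 tumor *Dcn* UMIs, 926 lay in a small cluster led by genes of other cell types, described with the receptors. Some markers of other cell types were widespread, *Epcam* being found in 29.8% and *Cdh1* in 31.3% of control cells, so that cells with 3 or more such markers need not be of another type. Without them the *Osm* log2 ratio was 1.74. A list of 16 genes known to be induced while tissue is digested (the isolation response: *Fos*, *Jun*, *Egr1* and heat shock genes among them) summed to 5310 CPM in control and 8620 CPM in tumor. The part of these differences between the libraries in the results below was not tested, except where values without the cells concerned are given. Of 5 basophil and mast cell markers, *Mcpt8* and *Ms4a2* had 0 UMIs in both libraries, which allows up to 0.0463 CPM in control and 0.0436 CPM in tumor. The others were detected at low counts, *Kit* with 12 UMIs in control and 11 in tumor, *Gata2* with 14 in each and *Cpa3* with 0 and 1.

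The ligand *Osm*, a cytokine of activated myeloid cells, was at 182 CPM (95% Poisson interval 179 to 185, 11813 UMIs) in the control library and at 601 CPM (595 to 607, 41340 UMIs) in the tumor library. The ratio of tumor over control was 3.30, a log2 ratio of 1.72 (1.69 to 1.75, exact conditional binomial interval). These intervals, like all below, cover counting error only and not variation between animals. Those of levels and ratios also treat UMIs as independent. They leave out variation between cells and are too narrow where the UMIs of a gene are uneven over cells. *Osm* (ENSMUSG00000058755) lies on chromosome 11 at 4236420 to 4241026 on the plus strand (GRCm38, GENCODE vM21) and has 3 exons, the last of which, at 4239386 to 4241026, holds the 3′ end where this assay counts.

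*Il6*, the ligand that gives the family its name (chromosome 5, 30013114 to 30019981, plus strand), was at 3.1 CPM (2.69 to 3.56, 201 UMIs) in control and at 26.5 CPM (25.3 to 27.7, 1822 UMIs) in tumor. Its log2 ratio was 3.09 (2.88 to 3.31), or 8.54-fold, the largest among the 7 genes that reached 10 UMIs in both libraries. *Lif*, leukemia inhibitory factor, is the neighbour of *Osm* on chromosome 11 (4257557 to 4272514, same strand), with 16530 bases and no annotated gene between them. It was at 14.8 CPM (13.9 to 15.7, 958 UMIs) in control and 21.9 CPM (20.8 to 23.0, 1505 UMIs) in tumor, a log2 ratio of 0.57 (0.45 to 0.68). The neighbours therefore stood on different sides of the 2-fold limit.

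**Figure D1:**
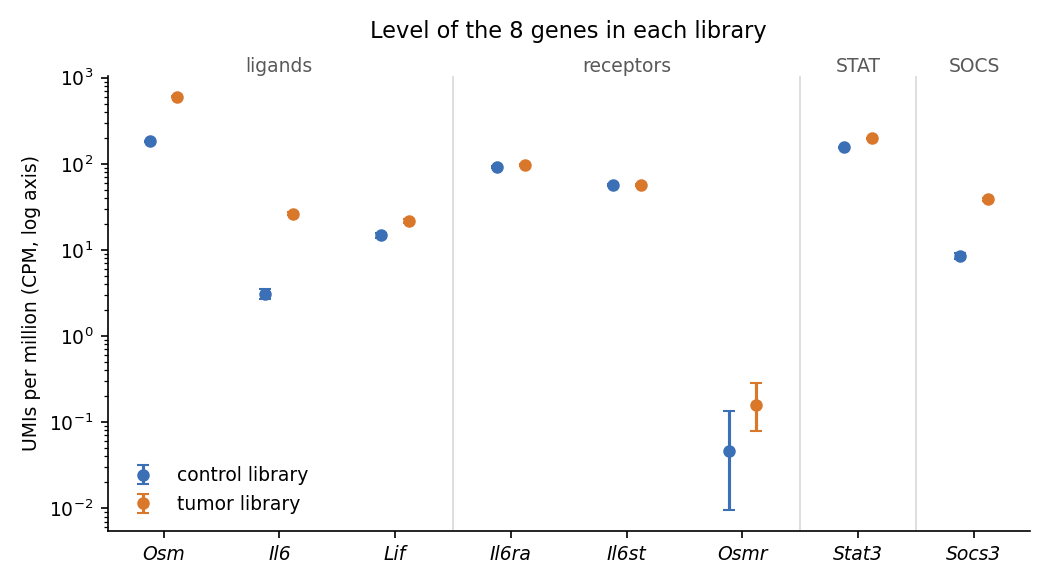
CPM (log axis) of each of the 8 genes in the control library (blue) and the tumor library (orange), with exact 95% Poisson intervals. *Osm*, *Il6* and *Socs3* stand apart between the libraries by at least 2-fold, while *Il6ra* and *Il6st* lie on almost the same level and *Osmr* is near 0 in both. Levels of different genes are not compared, since capture differs from gene to gene.

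Of the 12936 genes that reached 10 UMIs in both libraries, 4.3% were at least 2-fold higher in tumor and 5.16% at least 2-fold lower, and the median log2 ratio was −0.07. Of the 8 genes, 7 were counted by this rule, of which 3 were at least 2-fold higher (*Osm*, *Il6*, *Socs3*) and 0 lower, with a median log2 ratio of 0.57. Nothing is read from this count, since the genes were chosen with these ratios known.

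*Osm* was carried by a large part of the AMs in both libraries. Because tumor cells were shallower, each cell was thinned at random to 3800 UMIs, and 595 control and 729 tumor cells with fewer were left out. At this equal depth 38.9% (37.6 to 40.2) of 5590 control cells and 68.5% (67.4 to 69.6) of 6937 tumor cells had an *Osm* UMI, a difference of 29.6 percentage points (27.9 to 31.3). Without thinning the shares were 57.6% and 79.8%. In a small cluster led by genes of other cell types, described with the receptors, 2 of 22 control and 2 of 25 tumor cells had an *Osm* UMI before thinning, at median depths of 3840.5 and 6488 UMIs. After thinning, 1 of 11 control and 1 of 17 tumor cells deep enough had one, too few cells to give a close share. The *Osm* level there was 22.7 CPM (2.75 to 81.9) and 6.0 CPM (0.727 to 21.7), below that of either library.

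The number of *Osm* UMIs differed between cells more than counting alone would give. The thinned mean was 0.725 per cell in control and 2.47 in tumor, and the variance was 2.09 and 3.64 times the mean, where a Poisson draw gives a variance equal to the mean. For *Il6ra*, *Il6st* and *Stat3* that ratio lay between 1.06 and 1.13 in both libraries. In tumor, 31.5% of cells had no *Osm* UMI, against 8.42% in a Poisson draw of the same mean, while 1336 cells (19.3%) had 5 or more. In control, 61.1% had none, against 48.4%, and 104 cells (1.86%) had 5 or more. The 10% of cells with most *Osm* held 49.8% (48.2 to 51.3) of all thinned *Osm* UMIs in control and 37.7% (36.9 to 38.4) in tumor, against 33.8% and 22.6% in the Poisson draws. The highest single cell held 31 UMIs in control and 48 in tumor before thinning.

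**Figure D2:**
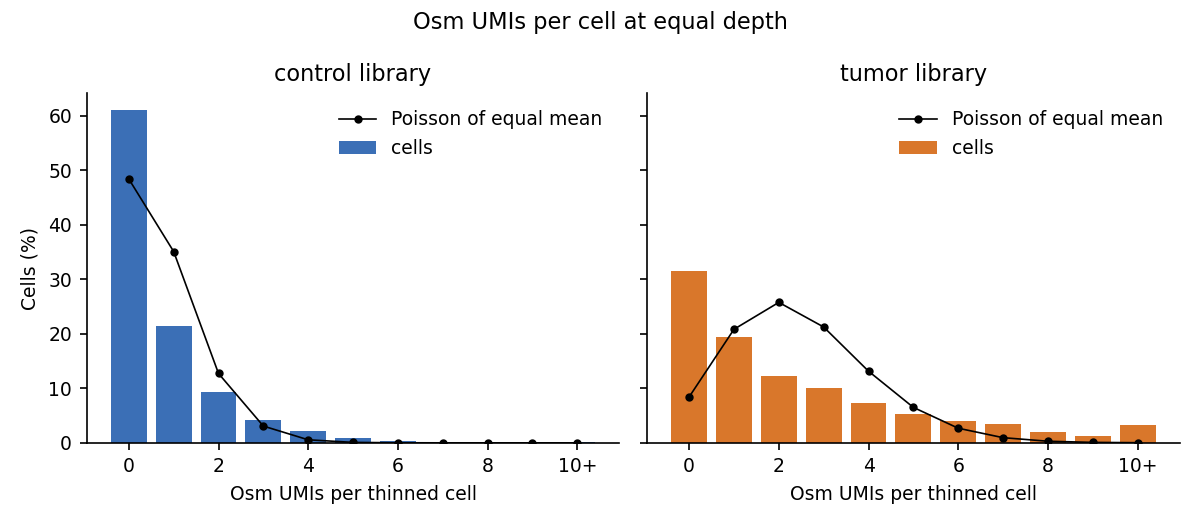
Share of cells (%) by number of *Osm* UMIs after thinning to 3800 UMIs, for the control library (left, 5590 cells) and the tumor library (right, 6937 cells), with cells of 10 or more in the last bar. Black points give a Poisson distribution with the mean of the library, which has fewer cells at 0 (48.4% against 61.1% in control, 8.42% against 31.5% in tumor) and a shorter tail than the cells.

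*Il6* was detected in fewer cells, 0.948% in control and 5.90% in tumor at equal depth, with a variance of 1.34 and 2.34 times the mean. *Lif* was found in 5.33% and 7.42% of cells. None of the 22 control cells of the cluster of other cell types had an *Il6* UMI, which allows a share of up to 13.6%, and 1 UMI was found in 25 tumor cells, so that free RNA could be bounded only loosely for this gene.

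Both chains of the IL-6 receptor lay within 2-fold. *Il6ra*, the ligand-binding chain for IL-6 (chromosome 3, 89864059 to 89913196, minus strand), was at 93.0 CPM (90.7 to 95.4, 6030 UMIs) in control and 96.3 CPM in tumor (94.0 to 98.7, 6629 UMIs), a log2 ratio of 0.05 (0.00 to 0.10). *Il6st*, which encodes gp130 (chromosome 13, 112464070 to 112510086, plus strand), was at 56.4 CPM (54.6 to 58.3, 3657 UMIs) and 57.2 CPM (55.5 to 59.1, 3938 UMIs), a log2 ratio of 0.02 (−0.04 to 0.09). The antisense gene *Gm42809*, which overlaps *Il6ra*, had 10 and 5 UMIs.

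At equal depth, 29.8% of control and 31.8% of tumor cells had an *Il6ra* UMI and 19.4% of both had an *Il6st* UMI. Cells with both chains made up 6.15% (5.54 to 6.82) in control and 6.52% (5.95 to 7.12) in tumor, against 5.79% and 6.16% if the chains were placed independently, and 43.1% and 44.6% had at least 1 of them. At this depth a cell without a UMI may still express the gene, and a UMI may come from free RNA. In the cluster of other cell types, 2 of 11 control and 1 of 17 tumor cells deep enough had an *Il6ra* UMI. For *Il6st* they were 4 of 11 and 5 of 17. The part of free RNA in these shares was not tested.

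*Osmr*, the receptor chain particular to oncostatin M (chromosome 15, 6813577 to 6874969, minus strand), was nearly absent from these cells. It had 3 UMIs in 2 control cells and 11 UMIs in 3 tumor cells, or 0.0463 CPM (0.00954 to 0.135) and 0.160 CPM (0.0798 to 0.286). The log2 ratio of 1.79 had an interval of −0.13 to 4.27 and gives no direction. All 11 tumor UMIs and 2 of the 3 control UMIs were in a cluster of 47 cells whose leading genes, *S100a9*, *Nppc*, *Igkc*, *Dcn* and *Lum*, belong to several other cell types. This cluster, 22 control and 25 tumor cells, was singled out after its genes were seen, and *Chil3*, an abundant AM gene, was at 420 and 102 CPM in it against 11672 and 10570 CPM elsewhere. In the remaining 7641 tumor cells *Osmr* had 0 UMIs, which allows a share of up to 0.0393% of cells with a UMI, and in the remaining 6163 control cells it had 1 UMI.

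Within that cluster *Osmr*, *Il6st* and *Socs3* were present. *Osmr* was at 22.7 CPM (2.75 to 81.9) in its control and 33.0 CPM (16.5 to 59.0) in its tumor cells, *Il6st* at 147 and 180 CPM, and *Socs3* at 102 and 144 CPM. *Il6ra* was at 56.7 CPM (18.4 to 132) and 21.0 CPM (8.44 to 43.3) there, against 93.0 and 96.7 CPM elsewhere. The 3 tumor cells with *Osmr* also held 48 of the 60 tumor *Il6st* UMIs and 36 of the 48 tumor *Socs3* UMIs of the cluster. Of these 3 cells, 1 held 357 UMIs of the fibroblast gene *Dcn*. None of the cells with *Osmr*, in either library, had an *Osm* UMI. These few cells do not describe a cell type.

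*Lifr*, the chain for LIF, had 13 UMIs in 12 control cells and 28 UMIs in 20 tumor cells, a log2 ratio of 1.02 (0.03 to 2.09), of which 3 and 10 UMIs were in the cluster of other cell types. Of 5 further receptor chains, *Cntfr* had 0 UMIs in both libraries, which allows up to 0.0463 CPM in control and 0.0436 CPM in tumor, and *Il11ra1* was the one with most UMIs, at 43.4 and 54.2 CPM (log2 ratio 0.32, 0.25 to 0.39). *Lifr* was the one of the 3 counted chains past 2-fold, and outside the cluster of other cell types it was not, at 0.154 and 0.263 CPM (log2 ratio 0.77, −0.42 to 2.05). That comparison was chosen once the values were known.

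*Stat3*, the transcription factor downstream of gp130 (chromosome 11, 100885098 to 100939540, minus strand), was at 155 CPM (152 to 158, 10056 UMIs) in control and 197 CPM (194 to 200, 13552 UMIs) in tumor, a log2 ratio of 0.35 (0.31 to 0.38). Its 3′ end overlaps that of *Stat5a* on the other strand, which had 22.5 and 24.5 CPM. At equal depth 43.9% of control and 52.1% of tumor cells had a *Stat3* UMI.

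*Socs3*, the feedback inhibitor of gp130 (chromosome 11, 117966079 to 117970047, minus strand), was at 8.57 CPM (7.88 to 9.32, 556 UMIs) in control and 38.9 CPM (37.5 to 40.4, 2679 UMIs) in tumor. The log2 ratio was 2.18 (2.05 to 2.32), or 4.54-fold. It was found in 3.11% of control and 11.1% of tumor cells at equal depth. In the small cluster of other cell types *Socs3* had 9 and 48 UMIs, so nearly all of its UMIs lay outside it. With clusters held at their control shares, as described with the clusters, its log2 ratio was 1.18.

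*Osm* was higher in tumor in nearly every cluster. The kept cells fell into 20 clusters above a minimum of 50 cells, lettered A to T by size. The 8 genes and the pathway, cytokine and isolation response lists were kept out of the clustering, while cell type markers were not. No cluster was given a cell type name. *Osm* was higher in tumor in 19 of 20 clusters, with the interval of the ratio above 0 in all 19, and log2 ratios ran from −0.05 (−1.32 to 1.12) in T, where only 34 tumor cells were left, to 2.16 (1.94 to 2.38) in J.

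In the tumor library *Osm* was highest in cluster J, at 1148 CPM (1072 to 1227), and in cluster B, at 1125 CPM (1107 to 1144), whose intervals overlap, followed by S at 886 CPM (729 to 1066). Clustered without library correction, the highest was instead a cluster of 64 cells led by *Spp1*, *Ecm1* and *Mmp19*, at 1742 CPM (1584 to 1911). Cluster B was led by *Vps37b*, *Il1b*, *Nr4a2*, *S100a6* and *S100a4*, held 1651 tumor and 68 control cells, and contributed 35.3% of all tumor *Osm* UMIs. Cluster J was led by *Gm26917*, *Mmp12* and the nuclear RNAs *Lncpint*, *Neat1* and *Malat1*, and its cells were shallow, with a median of 3103 UMIs. Cluster S was led by *Lncpint*, *Neat1*, *Gm26917*, *Kcnip4* and *Malat1* and was shallower still, at 1386 UMIs. High levels in J and S were not particular to *Osm*. In both libraries *Stat3* was highest in S and next in J, *Il6st* was highest in J and *Lif* in S. In the tumor cells of S, *Il6st* was low, at 23.7 CPM (3 UMIs). The part of depth in these levels was not tested. In the control library *Osm* was highest in B, at 426 CPM (378 to 478), before I at 313 CPM (280 to 349) and S at 302 CPM (210.2 to 420, 35 UMIs). The interval of S overlaps those of both B and I. Cluster I was led by the MHC class II genes *H2-Aa*, *H2-Eb1*, *H2-Ab1* and *Cd74*, and by *S100a4*.

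*Osm* was lowest in cluster G in control, at 79.9 CPM (72.7 to 87.6), and among clusters with at least 50 tumor cells it was lowest there in tumor as well, at 128 CPM (116 to 141). Cluster G was led by *Ear1*, *Ear2*, *Fabp1*, *Txnip* and *Mgst3*, of which the first pair are AM ribonuclease genes. At equal depth 18.3% of its control and 26.9% of its tumor cells had an *Osm* UMI, against 60.9% and 89.6% in B. In tumor, T (led by *Mmp12*, *Stmn1*, *Mfge8*, *AY036118* and *Ifi27*) was at 120 CPM (57.6 to 221) and N (led by *Cxcl9* and MHC class II genes) at 226 CPM. In control, R (led by *Hmox1*, *Gclm*, *Srxn1*, *Blvrb* and *Mt1*) and T followed G at 109 and 125 CPM. The cluster with the highest summed isolation response list, D (led by *Hspa1b*, *Hspa1a*, *Klf2*, *Egr1* and *Jun*), had that list at 9873 CPM in control and 16742 CPM in tumor and *Osm* at 164 and 394 CPM, the thirteenth in the tumor order. The clusters next in this list were mostly those highest in *Osm* in tumor, but less so in control. In control the next were B (7157 CPM) and I (6240 CPM), first and second in *Osm*. After them came M (5572 CPM) and G (5383 CPM), with *Osm* at 156 CPM and, the lowest of all clusters, 79.9 CPM. In tumor the next were B (10101 CPM), S (9213 CPM), Q (9123 CPM) and J (9060 CPM), then K (8954 CPM) and I (8884 CPM). Without K these are the 5 highest in *Osm*.

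**Figure D3:**
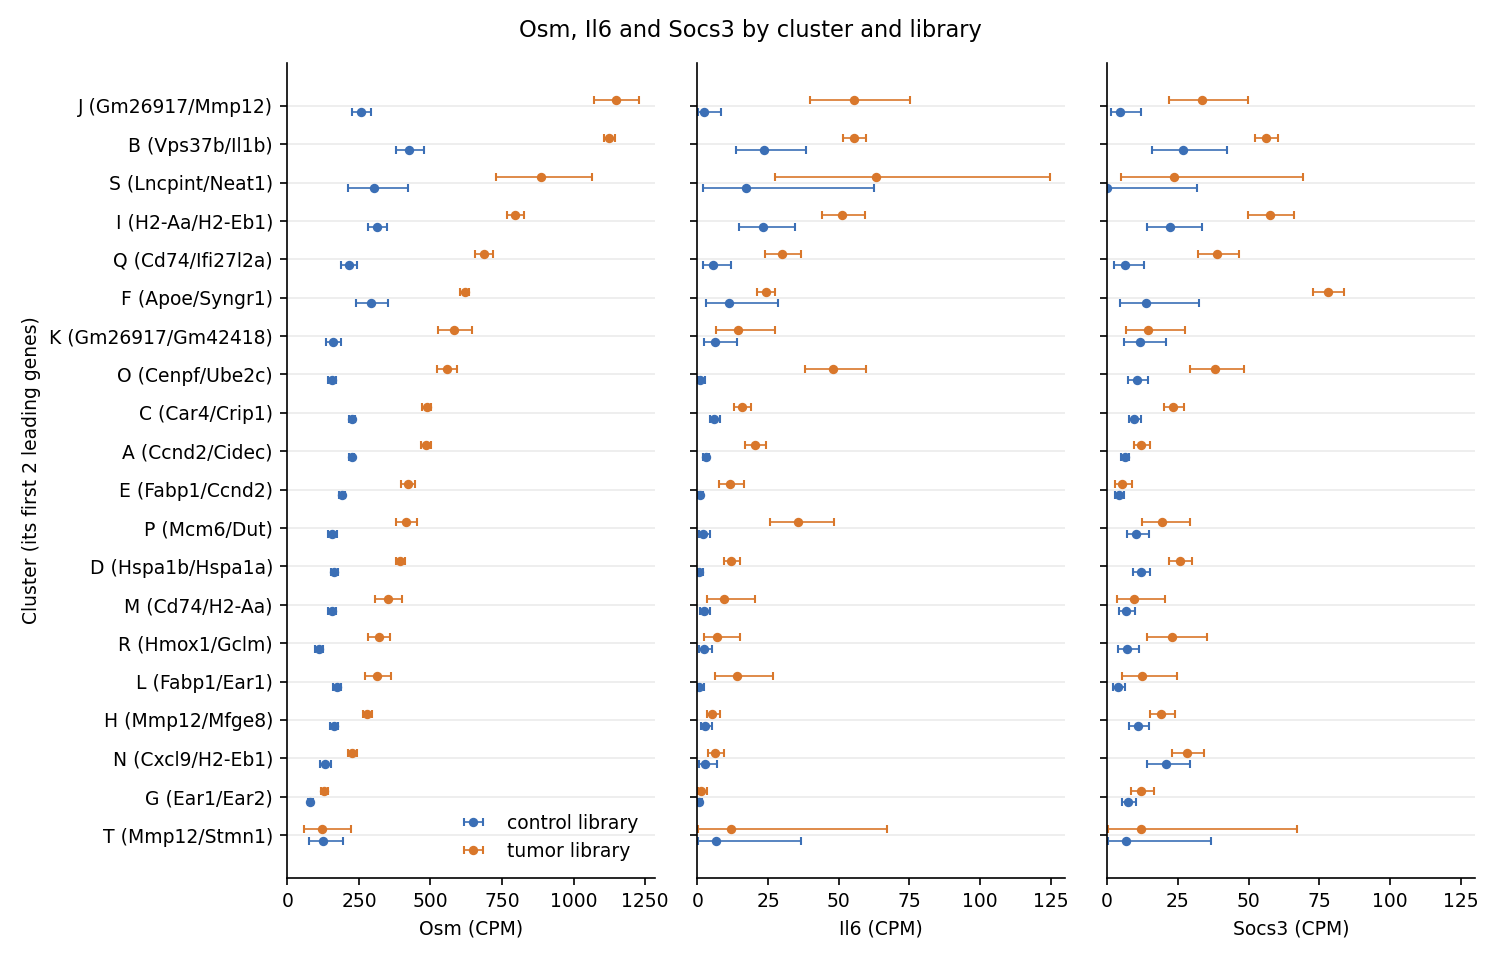
CPM of *Osm*, *Il6* and *Socs3* in each of the 20 clusters, in the control library (blue) and the tumor library (orange), with exact 95% Poisson intervals. Clusters are ordered by *Osm* in tumor and named by letter and first 2 leading genes. *Osm* is higher in tumor in all clusters but T, and the cluster highest in *Socs3* in tumor, F, is the sixth in *Osm*.

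*Il6* was higher in tumor in all 20 clusters, with the interval above 0 in 12. Its tumor level was 55.4 CPM (51.4 to 59.6) in B, 55.3 CPM (39.7 to 75.0) in J, 51.3 CPM (44.1 to 59.4) in I and 63.3 CPM in S, where it rested on 8 UMIs, and these do not differ beyond their intervals. Cluster O, led by the mitosis genes *Cenpf* and *Ube2c*, had the largest *Il6* ratio, at 0.90 CPM (3 UMIs) in control and 47.9 CPM (82 UMIs) in tumor. *Lif* was higher in tumor in 17 clusters, with the interval above 0 in 5, and *Stat3* in 18, with the interval above 0 in 11.

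*Socs3* was high in many of the clusters high in *Osm*, but not in the same order. In control B and I were first and second for both genes. Clusters S and J, with *Osm* at 302 and 257 CPM in control, were low in *Socs3* there. S had 0 *Socs3* UMIs, which allows up to 25.9 CPM, and J was at 4.65 CPM (1.27 to 11.9). In tumor the 6 highest in *Socs3* held 5 of the 6 highest in *Osm*. *Socs3* was highest in tumor in cluster F, at 78.2 CPM (72.9 to 83.8), then in I at 57.5 CPM (49.9 to 66.0) and B at 56.3 CPM (52.3 to 60.5), and lowest in E at 5.13 CPM. Cluster F was led by *Apoe*, *Syngr1*, *Ecm1*, *Spp1* and *S100a6*, held 830 tumor and 31 control cells, and contributed 30.3% of tumor *Socs3* UMIs but 15.6% of tumor *Osm* UMIs. *Socs3* was higher in tumor in 19 clusters, with the interval above 0 in 14, while cluster S had 0 control UMIs and gave no ratio. *Il6ra* was higher in tumor in 13 of 20 clusters, with the interval above 0 in 5 and below 0 in 1, and *Il6st* in 6, with the interval above 0 in 2 and below 0 in 4.

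Clusters B and F were mostly of tumor cells, 95.1% and 95.6% after both libraries were given equal weight, so the library ratios were also computed with the makeup of the libraries held fixed. Without B and F the log2 ratio was 1.32 (1.29 to 1.35) for *Osm*, 2.73 (2.49 to 2.97) for *Il6* and 1.58 (1.43 to 1.73) for *Socs3*. With every cluster at its control share of cells, they were 1.28, 2.47 and 1.18, so that all 3 stayed past 2-fold, *Socs3* by the least. Whether B and F are kinds of cells or features of the tumor library cannot be told apart.

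The *Osm* ratio was nearly as large without cells that had monocyte markers. Without all cells that had a UMI of any of the 8 monocyte markers, which left 5531 control and 5580 tumor cells, *Osm* was at 182 CPM in control and 584 CPM in tumor, a log2 ratio of 1.68 (1.65 to 1.71). *Il6* was at 2.89 and 24.7 CPM (3.1, 2.86 to 3.34), and *Socs3* at 8.01 and 31.1 CPM (1.96, 1.80 to 2.11). The 115 tumor cells with 3 or more monocyte markers had *Osm* at 407 CPM (378 to 437), below the library level, and *Socs3* at 89.1 CPM (76.0 to 104), above it. The 8 such control cells had *Osm* at 552 CPM (396 to 749), above their library level, as had the 1971 tumor cells with 1 or 2 markers, at 654 CPM (643 to 665). This setting was added after the data were seen.

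Cells with an *Osm* UMI were compared with the other cells of the same library at equal depth. In tumor, *Il6* was at 30.9 CPM (28.4 to 33.6) in 4753 carriers and 12.4 CPM (10.1 to 15.1) in 2184 others, a log2 ratio of 1.32 (1.01 to 1.63). In control it was at 5.20 CPM (3.76 to 7.0) in 2176 carriers and 1.54 CPM (0.94 to 2.38) in 3414 others. *Lif* was at 22.5 and 10.8 CPM in control (log2 ratio 1.06, 0.74 to 1.39) and at 26.0 and 15.1 CPM in tumor (0.79, 0.50 to 1.08). Both other ligands were thus at higher levels in carriers, in each library. Inside the 6 control clusters with at least 100 cells on both sides, *Lif* was higher in carriers in 6, with the interval above 0 in 3, and in 8 such tumor clusters it was higher in 7 and lower in 1 (E, −0.75), with the interval above 0 in 3 and a log2 ratio of 0.10 (−0.73 to 1.05) in B. *Il6* gave a ratio in 4 of the control clusters, was higher in 3 and lower in 1, and had the interval above 0 in 0. Carriers were slightly shallower before thinning, with medians of 10749.5 and 8587 UMIs against 10887.5 and 9146.5 in the others.

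*Socs3* was higher in carriers in the tumor library. In control it was at 7.98 CPM (6.17 to 10.2) in carriers and 9.10 CPM (7.53 to 10.9) in others, a log2 ratio of −0.19 (−0.65 to 0.26). In tumor it was at 40.3 CPM (37.4 to 43.3) and 27.2 CPM (23.8 to 31.0), a log2 ratio of 0.57 (0.35 to 0.79). The difference between the libraries was not tested. Inside the 8 tumor clusters with at least 100 cells on both sides, *Socs3* was higher in carriers in 4 and lower in 4, with log2 ratios from −1.17 to 0.97, the interval above 0 in 1 (D) and below 0 in 0. It was at 52.5 CPM in carriers and 53.9 CPM in others of B, and at 94.0 and 74.3 CPM in F (log2 ratio 0.34, −0.08 to 0.77). In D it was at 32.8 and 16.8 CPM (0.97, 0.17 to 1.82). *Il6* was higher in carriers in 7 of the 8 tumor clusters, with the interval above 0 in 3 (A, B and C). It was at 50.8 CPM in carriers and 29.4 CPM in others of B (0.79, 0.10 to 1.56). In D *Il6* was lower in carriers, at 9.77 and 22.1 CPM (−1.18, −2.23 to −0.18), from only 14 and 25 UMIs. *Il6ra* differed little between carriers and others, with log2 ratios of −0.04 (−0.17 to 0.09) in control and 0.05 (−0.06 to 0.17) in tumor. *Il6st* and *Stat3* were at 0.35 (0.18 to 0.51) and 0.25 (0.16 to 0.34) in tumor, and at 0.08 (−0.08 to 0.25) and 0.11 (0.01 to 0.21) in control.

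*Il6* was higher in each class of cells with more *Osm* UMIs. In tumor, *Il6* was at 12.4, 18.3, 26.0 and 51.2 CPM in cells with 0, 1, 2 to 4, and 5 or more *Osm* UMIs, and in control at 1.54, 3.08, 7.23 and 12.7 CPM, the last from 5 UMIs in 104 cells. *Socs3* in tumor was at 27.2, 36.3, 34.2 and 53.8 CPM. Over the same 4 classes in tumor the isolation response list summed to 8497, 8582, 8870 and 10426 CPM, and the monocyte list to 83.4, 88.1, 79.7 and 82.3 CPM. In control the isolation response list summed to 5191, 5431, 5887 and 7042 CPM, and the monocyte list to 15.03, 13.2, 26.8 and 27.8 CPM, higher in cells with 2 or more *Osm* UMIs. Other lists moved with *Osm* across tumor cells as well, the inflammatory genes from 2608 CPM in cells with 0 to 3789 CPM in cells with 5 or more *Osm* UMIs and the STAT3 targets from 6343 to 9253 CPM, while AM markers were at 15146 and 13548 CPM. In control the inflammatory genes were at 1889 and 3363 CPM in these 2 classes and the STAT3 targets at 4618 and 6738 CPM. The STAT3 target sum rests mostly on a few abundant genes. Over the whole tumor library it was 7160 CPM, with *Cebpb* at 2781, *Junb* at 1616, *Mcl1* at 1138 and *Pim1* at 737 CPM. *Junb* also belongs to the isolation response list and *Vegfa* to the inflammatory list, so these sums are not separate. The AM marker sum in control was higher in the class of 5 or more, at 16295 and 17176 CPM. Most of that sum is *Chil3*, at 11656.5 CPM in the control library. In control carriers of *Osm*, *Chil3* was slightly higher than in other cells (log2 ratio 0.06, 0.04 to 0.07). *Marco* (−0.07, −0.12 to −0.01), *Ear1* (−0.33, −0.38 to −0.27) and *Ear2* (−0.13, −0.16 to −0.09) were lower. The remaining AM markers were not compared in this way. The part of these lists in the *Osm* level was not tested.

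**Figure D4:**
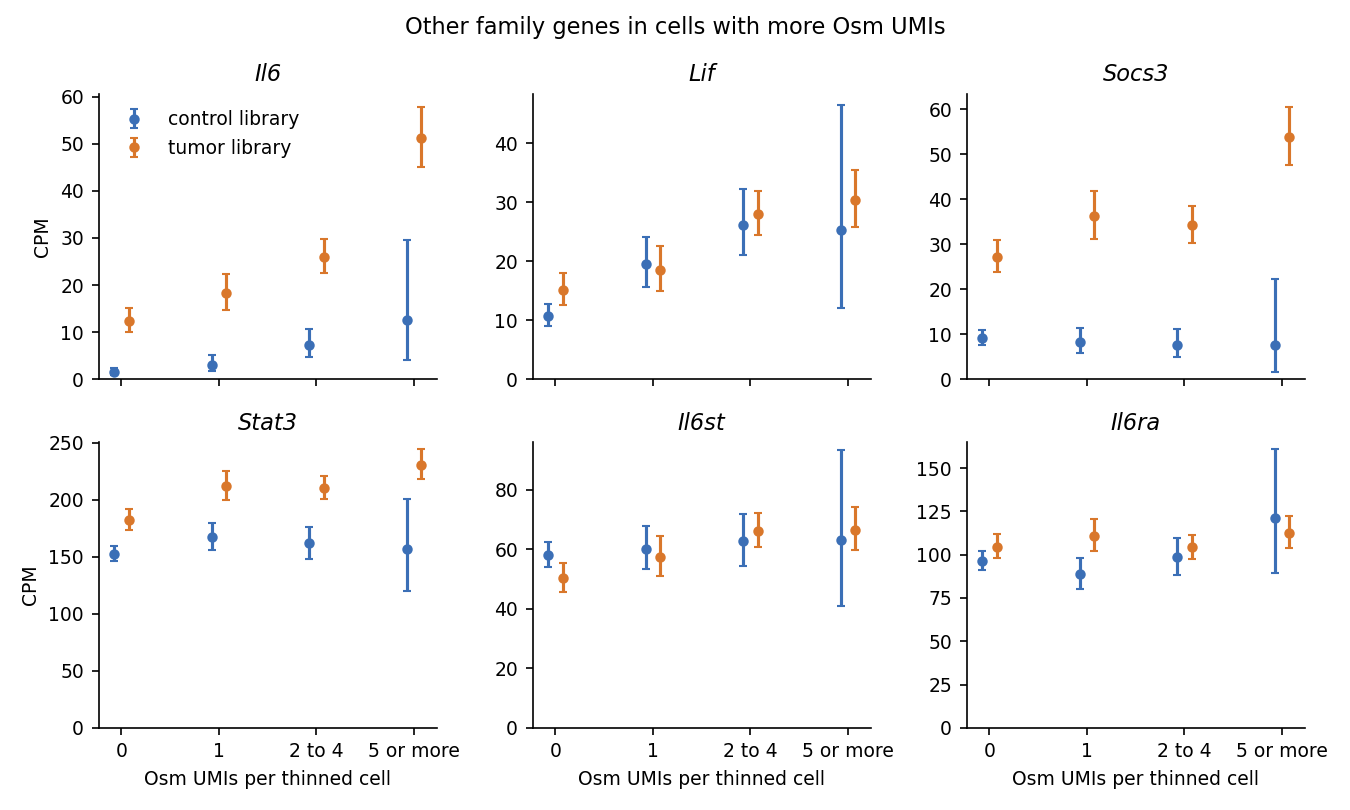
CPM of 6 genes in cells with 0, 1, 2 to 4, and 5 or more *Osm* UMIs after thinning to 3800 UMIs, in the control library (blue) and the tumor library (orange), with exact 95% Poisson intervals. *Il6* climbs from 12.4 to 51.2 CPM in tumor, *Socs3* is at 27.2 CPM in the lowest and 53.8 CPM in the highest class in tumor and between 7.53 and 9.10 CPM in control, and *Il6ra* lies between 88.7 and 121 CPM throughout.

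The wider pathway was examined through lists, beside the 4.3% of all genes at least 2-fold higher and 5.16% at least 2-fold lower. Of 10 further family ligands, 6 had at least 10 UMIs in each library, of which *Ebi3*, the shared chain of interleukin-27, was at least 2-fold higher, at 1.13 CPM in control and 5.23 CPM in tumor (log2 ratio 2.22, 1.85 to 2.60), and 0 were lower. *Il31* had 0 UMIs in both. Of 10 JAK kinases and other STATs, 9 were counted and *Stat2*, a factor of interferon signaling, was the one past 2-fold, at 13.3 and 37.5 CPM (1.5, 1.39 to 1.61). Their median log2 ratio was 0.22, and *Jak1*, the main kinase of gp130, was at 134 and 160 CPM.

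Of 13 further feedback genes, all were counted and 2 were at least 2-fold higher, with a median log2 ratio of 0.15. *Socs1*, an inhibitor of interferon signaling, was at 1.45 and 4.03 CPM (1.47, 1.13 to 1.83), and *Cish*, a STAT5 target, at 26.3 and 61.8 CPM (1.23, 1.15 to 1.32). *Socs2*, *Socs4*, *Socs5*, *Socs6* and *Socs7* lay between −0.19 and 0.46. *Cish* also belongs to a list of 8 genes of granulocyte-macrophage colony-stimulating factor and STAT5, of which it was the single gene past 2-fold among 7 counted, and the ligand gene *Csf2* had 0 UMIs in both libraries. The 3 genes of IL-6 receptor shedding, *Adam10*, *Adam17* and *Rhbdf2*, lay between −0.07 and 0.29.

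Of 20 genes known as STAT3 targets, 19 were counted, 5 were at least 2-fold higher and 0 lower, and the median log2 ratio was 0.47. *Pim1*, a survival kinase, was at 336 and 737 CPM (1.13, 1.11 to 1.16), and *Bcl3*, a cofactor of NF-kappaB, at 7.32 and 19.6 CPM (1.42, 1.27 to 1.57). *Vegfa*, the angiogenic growth factor, was at 2.24 and 29.0 CPM (3.69, 3.45 to 3.95), *Fgl2* at 1.71 and 10.5 CPM (2.61, 2.32 to 2.92) and the acute phase gene *Saa3* at 0.23 and 4.68 CPM (4.34, 3.60 to 5.19). Others did not differ in this way, such as *Myc* at 0.05 (−0.11 to 0.20) and *Icam1* at −0.06 (−0.13 to 0.01), and the lowest was *Lcn2* at −0.88 (−1.63 to −0.15). These genes answer to other signals as well.

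Of 16 inflammatory cytokine and chemokine genes, 14 were counted and 6 were at least 2-fold higher, namely *Il1b* (136 and 687 CPM), *Cxcl1* (26.3 and 75.3 CPM), *Cxcl3* (10.4 and 31.3 CPM), *Ccl4* (32.6 and 98.1 CPM), *Csf1* (1.56 and 11.4 CPM) and *Vegfa*. *Tnf* was at 87.0 and 79.9 CPM. The higher *Osm* and *Il6* levels therefore came with some but not all inflammatory genes. Of the 16 isolation response genes, 4 were at least 2-fold higher, *Ier3*, *Nr4a1*, *Hspa1a* and *Hspa1b*, and the list had a median log2 ratio of 0.75, above the 0.57 of the 8 genes.

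**Figure D5:**
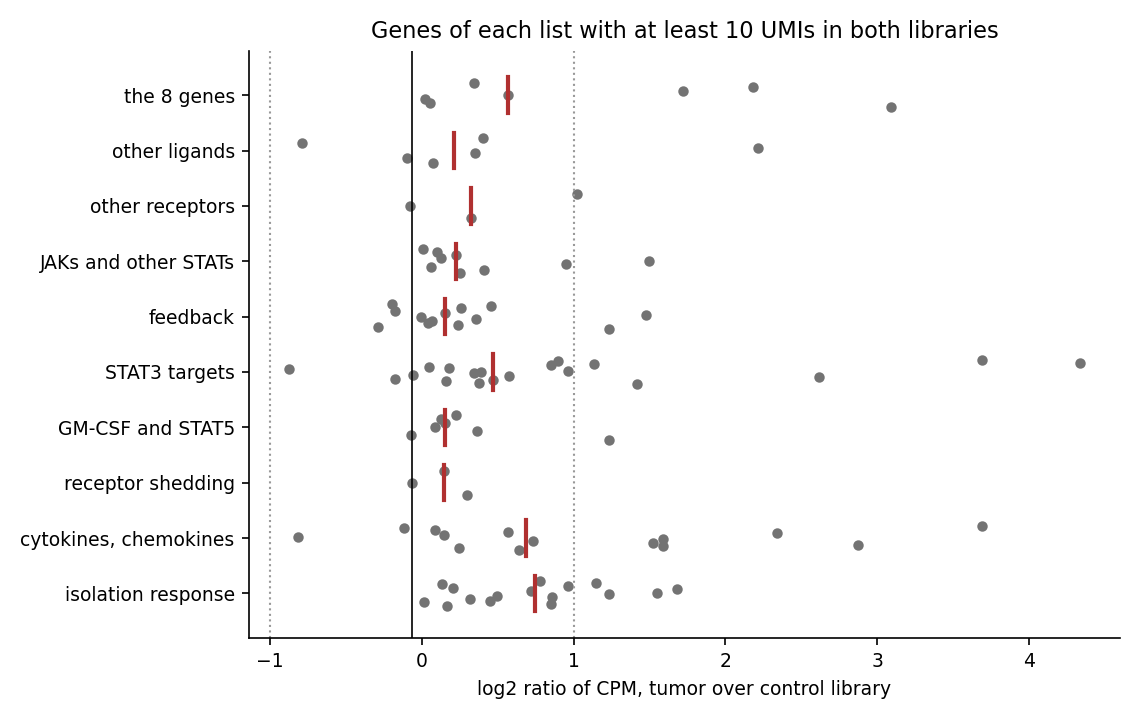
log2 ratio of CPM, tumor over control library, for genes with at least 10 UMIs in both libraries, 1 point per gene and 1 row per list, with the list median as a red bar. The black line is the median of all 12936 genes (−0.07) and the dotted lines mark 2-fold. The 3 highest of the 8 genes lie past 2-fold, most feedback genes lie within it, and of the lists drawn, which leave out cell type markers, the isolation response list has the highest median, 0.75.

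The genes whose counts were most like those of *Osm* across cells, by the lower of the 2 libraries' Pearson correlations of log(1 + thinned UMIs) over 8254 genes, were *Cebpb*, *Junb*, *Cdkn1a*, *Nr4a1*, *Trim25*, *Malt1*, *Fosl2*, *Zfp36*, *Ier3* and *Thbd*. The correlations were low, between 0.130 and 0.158 in the 5590 control cells and between 0.143 (*Trim25*) and 0.288 (*Junb*) in the 6937 tumor cells, and *Junb*, *Nr4a1*, *Zfp36* and *Ier3* belong to the isolation response list. Those most like *Socs3* were *Cxcl2*, *Il1b*, *Fos*, *Cxcl1* and *Nfkbia*, with *Cxcl2* at 0.101 and 0.0869 and *Nfkbia*, the last of the 5, at 0.0713 and 0.06. *Osm* itself correlated with *Il6* at 0.0699 and 0.113 and with *Socs3* at −0.00773 and 0.0804. Cells of 1 library share its preparation, so these values describe the libraries and are given without a p-value.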

How the data were processed

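Single-cell libraries of sorted AMs from control and tumor-bearing mice were made with a 10x Genomics 3′ kit. The authors aligned and counted reads with Cell Ranger, for which the submitters' processing notes name version 4.0.0, bcl2fastq 2.20 and genome build mm10, while the study's methods name another Cell Ranger version. The deposited values are raw UMI counts per gene and barcode, with no normalization, doublet removal or quality filter by the authors. Of 8485 control and 9175 tumor barcodes, those with under 500 genes (1323 and 745) or over 10% mitochondrial UMIs (2184 and 1423, some failing both) were removed. The automatic call of Scrublet marked 0 doublets in either library and was not relied on, and doublets were kept. An alternative removed cells above the cutoff for the highest 6% of scores, ties kept, which were 274 control (4.43%) and 410 tumor (5.35%) cells. Of 32285 identifiers, 32158 had a symbol.

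Levels are CPM of UMIs summed over cells, with exact Poisson intervals at 95%. Ratios carry exact conditional binomial intervals, and shares exact binomial (Clopper-Pearson) intervals, the limits of a difference being combined from both. For a count of 0, the limit printed is that of 3 counts. UMIs of 1 library cover counting error only, and intervals of levels and ratios leave out variation between cells as well as between animals. Thinning drew 3800 UMIs per cell without replacement, the 10th percentile of the shallower library rounded down. Leiden clustering (resolution 1) used 2000 variable genes, 50 components and 15 neighbours, with libraries aligned by mutual nearest neighbours. Left out beside the cluster of other types were 2 further small clusters with 58 cells in all. Clusters were rebuilt here, so they may differ from those of the study. Genes at least 2-fold apart were counted among those with 10 or more UMIs in each library.

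The members, lists and rules were chosen with earlier results of these data known. Genes named are the 8 members, list genes past 2-fold or at 0 in both libraries, the 10 most like *Osm* and the 5 most like *Socs3* (thinned UMI in at least 2% of cells of both libraries), the 3 clusters highest and lowest in *Osm*, and their 5 leading genes. A few others are named for contrast, after their values were seen. The statistics were tested on simulated data. Alternatives changed the filter, doublets, scaling, thinning, clusters and cells of other types. Hashtag reads, spliced counts and the study's other assays were not used here. Python 3.11.15 was used with numpy 2.4.6, scipy 1.17.1, pandas 2.3.3, scanpy 1.11.5, leidenalg 0.10.2, igraph 0.11.9 and matplotlib 3.10.9.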

Additional observations from a re-analysis of the deposited data

How the results depend on the processing

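No paired analysis was possible because there was 1 library per group. The ratios of *Osm*, *Il6*, *Lif*, *Il6ra*, *Stat3* and *Socs3* kept their sign under every alternative, while those of *Osmr* and *Il6st*, whose main intervals include 0, did not. *Il6st* was at −0.11 (−0.18 to −0.03) and *Osmr* at 2.36 (0.44 to 4.84) without tumor-enriched clusters, and *Il6st* was at 0.10 (0.02 to 0.17) without cells with any monocyte marker and 0.09 (0.02 to 0.15) when scaled by the median ratio. The *Osmr* value gives no direction, since all 11 tumor UMIs were in 3 cells of the cluster of other types, which that setting keeps. Outside that cluster *Osmr* had 1 UMI in control and 0 in tumor. The *Osm* log2 ratio ran from 1.28 to 1.80 over 13 alternatives, 7 of which left it within its counting interval. It was 1.77 in thinned cells, 1.32 without tumor-enriched clusters, 1.68 without cells with any monocyte marker, 1.80 as the mean of each cell's CPM, 1.79 when scaled by the median ratio and 1.28 with clusters at control shares. The *Il6* ratio was 2.73 without tumor-enriched clusters and 2.47 at control shares. The *Socs3* ratio was 1.58 and 1.18 in these settings, 1.96 without cells with any monocyte marker and 2.04 as the mean of each cell's CPM. The other ratios ran from 0.54 to 0.69 for *Lif*, 0.04 to 0.17 for *Il6ra*, −0.11 to 0.10 for *Il6st*, 0.30 to 0.41 for *Stat3* and −1.90 to 2.36 for *Osmr*. The difference in the share of cells with an *Osm* UMI was 27.8 points at 6000 UMIs, 31.6 with at least 2 UMIs required and 22.2 without thinning. The share of *Osm* UMIs in the 10% of cells with most *Osm* was, in control, 58.0% at 2000 UMIs, 46.4% at 6000 and 46.0% unthinned, and in tumor 41.6%, 35.9% and 36.6%, and 38.4% without doublets. The highest *Osm* level of a cluster in control was 362 CPM at a resolution of 0.5 and 496 CPM without library correction, and the lowest was 70.1 CPM without correction and 72.1 CPM with another seed. In tumor the highest was 1742 CPM without correction, in a cluster of 64 cells led by *Spp1*, *Ecm1* and *Mmp19* in place of J. The causes were not tested. Settings without the cluster of other types or without cells with monocyte markers were added after seeing the data. Few UMIs limit *Osmr* and *Lifr*.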
